A study of Mus musculus with 7 samples.

Results

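The core macroautophagy machinery was followed in RNA from mouse femora as a set of 42 genes, out of 27179 genes counted. The members were chosen by symbol alone: 18 carry the name Atg followed by a number, and 24 others encode further members of the initiation kinase complex, the class III phosphatidylinositol 3-kinase complexes, the membrane supply and conjugation systems, the Atg8 proteins, the cargo receptors and the fusion factors. All 42 passed the filter on low counts and were tested among 15098 genes. Bones came from 12-week-old female mice on a C57BL/6 background, and the marrow was flushed out before RNA was extracted. The comparison was between 3 libraries labelled Dmp1Cre.Efnb2f/f and 4 libraries from Dmp1Cre controls, each from a separate mouse, and it asked whether loss of EphrinB2 from osteocytes altered expression in bone. Both groups carried the Dmp1Cre transgene, in which a Dmp1 promoter drives Cre recombinase in late osteoblasts and osteocytes, so they differed in the floxed Efnb2 alleles and not in Cre. By the labels, the parents of Dmp1Cre.Efnb2f/f mice 1 and 2 were one cross and those of control mice 1 and 2 a different one, mouse 3 of each genotype had the same parent cross, and the cross of control 4 gave no other library. Within a cross, the genotypes could thus be compared only between mouse 3 of each. The mice were fasted before bones were taken, according to the study's methods.

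Macroautophagy encloses portions of cytoplasm, damaged organelles or protein aggregates in a double membrane, the autophagosome, and delivers them to the lysosome. A kinase complex starts the process, a lipid kinase complex marks the site, Atg9 vesicles and Atg2 lipid transfer supply membrane, and 2 conjugation systems attach Atg8 proteins (LC3 and GABARAP) to the growing membrane, where cargo receptors bind. Most of the pathway is controlled by phosphorylation, lipidation and turnover of the proteins, so transcript levels describe the supply of components and not the flux of autophagosomes. Osteocytes, osteoblasts and osteoclasts all use the pathway.

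Library totals ranged from 17245556 to 22075778 counts, and no 2 libraries of a genotype were alike within sampling noise (chi-square per degree of freedom 29.0 to 229). Efnb2, the targeted gene, went against the labels: its counts were 322, 239 and 224 under the label Dmp1Cre.Efnb2f/f but 164, 139, 110 and 117 under the control label, or 14.3 ± 3.21 (SD, n = 3) against 7.30 ± 1.07 (SD, n = 4) CPM (read counts scaled to library size and by trimmed mean of M values, TMM). The groups did not overlap, as in 11.3% of all genes in either direction. An exact two-sided permutation test gave p = 0.0286, which no comparison of 3 with 4 libraries can go below. In edgeR the log2 fold change was 0.96 (SE 0.21, unadjusted p = 0.0016, adjusted p = 0.511). Whole-gene counts of bone do not separate a floxed exon, or osteocytes from other cells, so directions below are between libraries as labelled. Whether the labels were exchanged was not tested, and every direction would turn if they were. All 6 osteocyte markers looked at (Dmp1, Mepe, Sost, Phex, Pdpn and Fgf23) were detected in every library, with a summed level of 258 to 500 CPM in Dmp1Cre.Efnb2f/f and 156 to 621 CPM in controls. The bones also held RNA of other cells. Erythroid markers summed to 9040 to 17658 CPM against 20061 to 56381 CPM in controls, and 5 of the 7 measured were lower without overlap. Neutrophil markers summed to 11867 to 14889 CPM against 16970 to 19825 CPM, with 3 of 7 lower without overlap, and skeletal muscle markers to 22677 to 35515 CPM against 10553 to 24110 CPM, with 4 of 7 higher at an unadjusted edgeR p under 0.05 and 0 of 7 separated. Endothelial markers summed to 374 to 450 CPM against 288 to 377 CPM, with 2 of 5 higher without overlap. Among all genes tested, 11.3% had groups apart in either direction (6.3% lower), and 9.66% had an unadjusted edgeR p under 0.05. In bulk RNA of this kind, fewer cells of a type and less RNA per cell cannot be told apart, and the part of these cell types in the values below was not tested.

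The machinery was expressed well above the typical gene. Compared per length, as RPKM (CPM divided by the length of the gene model in kilobases), the members had a median level of 19.8 RPKM over the 7 libraries, against 8.96 RPKM for all genes tested, and they ranged from 0.477 RPKM for Atg9b to 149 RPKM for Sqstm1. Sqstm1, which encodes the cargo receptor p62, stood at the 97.9th percentile of all genes tested. It was followed by Map1lc3b at 64.6 RPKM, which encodes the Atg8 protein LC3B, by Tax1bp1 at 61.9 RPKM, a receptor for ubiquitinated cargo, and by Becn1 at 56.6 RPKM, which encodes the Beclin 1 subunit of the lipid kinase complex. Cargo receptors and adaptors (median 40.8 RPKM) and the Atg8 family (median 38.3 RPKM) were the most abundant steps, and the conjugation enzymes that act on Atg8 were lower, with a median of 15.3 RPKM. At the low end, Atg10, the E2-like enzyme that joins Atg12 to Atg5, stood at 3.29 RPKM, and Atg14, the subunit that directs the lipid kinase to autophagosome formation, stood at 5.34 RPKM. Within paralog pairs, Atg9a, the widely expressed lipid scramblase of Atg9 vesicles, stood at the 87.0th percentile while its paralog Atg9b stood at the 5.40th. The gene span of Atg9b, introns included, overlaps that of Nos3 by 294 bases.

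**Figure D1:**
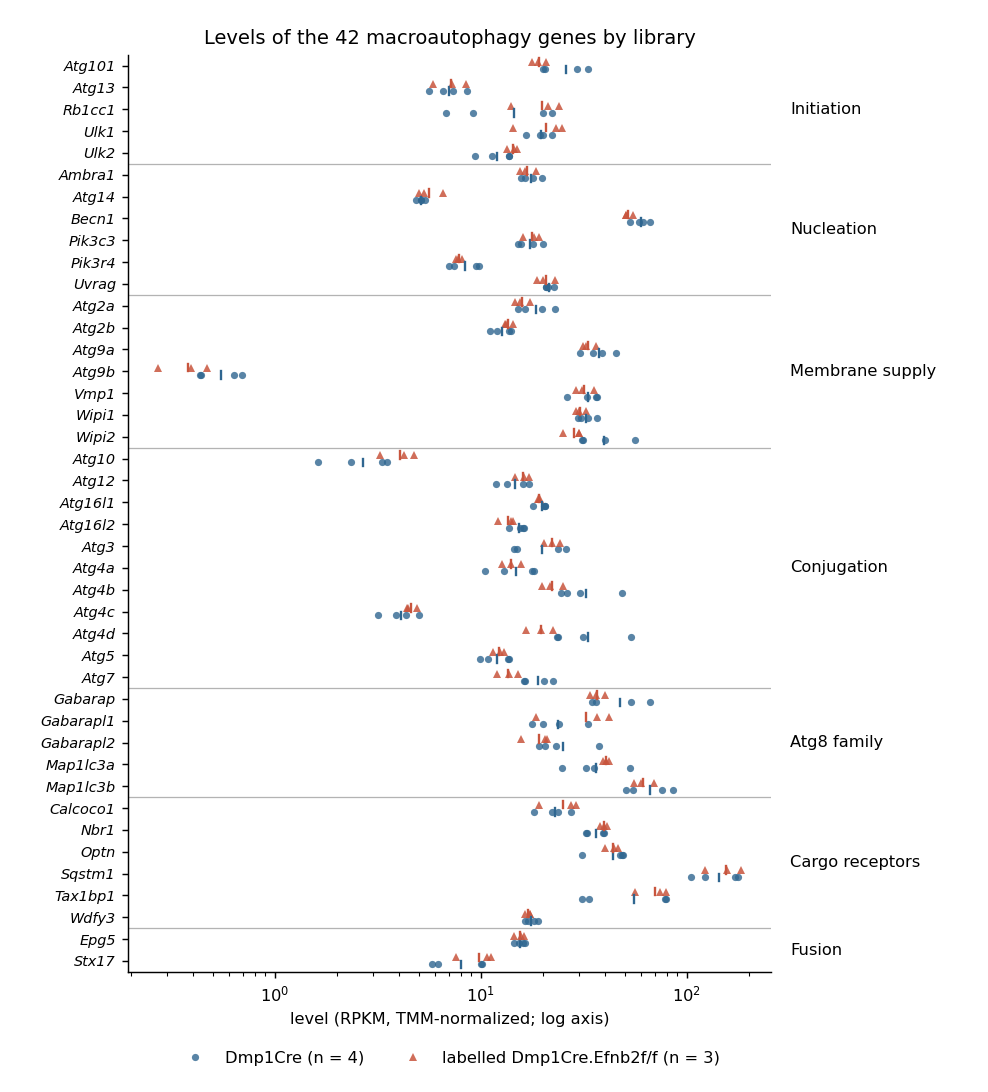
Expression of the 42 members in each of the 7 libraries, in RPKM on a log axis, grouped by step of the pathway, with a vertical tick at the mean of each genotype. Levels run from 0.477 RPKM (mean of Atg9b) to 149 RPKM (mean of Sqstm1), and for most members the points of both genotypes are mixed.

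The members varied less between mice than the typical gene, though spread was not compared at matched expression levels. The highest library was 1.14 to 3.56 times the lowest, with a median of 1.59 times, against 1.97 times over all genes tested. The steadiest were Epg5, a tethering factor for fusion with the lysosome (1.14 times), Atg16l1, which targets the conjugation complex to the membrane (1.14 times), and Wdfy3, a large adaptor for aggregates (1.16 times). The most variable were Rb1cc1, the FIP200 scaffold of the initiation complex (3.56 times), and Atg4d, a protease of the Atg8 system (3.24 times).

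No member passed the threshold between the genotypes in edgeR. With edgeR's quasi-likelihood test and Benjamini-Hochberg adjustment over 15098 genes, 0 of 42 members and 0% of all genes tested had an adjusted p under 0.05, and the members' adjusted p ranged from 0.511 to 0.988. The log2 fold change (Dmp1Cre.Efnb2f/f over control) was positive for 19 members and negative for 23, with a median of -0.03 against 0.01 over all genes tested. Before adjustment, 2 members, Atg7 and Atg4d, had p under 0.05, which is 4.76% of the members against 9.66% of all genes, and both were lower, as were 5.03% of all genes. In 3 members, Atg7, Atg4d and Wipi2, every library labelled Dmp1Cre.Efnb2f/f lay below every control. That is 7.14% of the members, against 11.3% of all genes with groups apart in either direction and 6.3% apart with the controls higher, so the members' shares were below or near the background. DESeq2 also called 0 members, against 0.477% of all genes, and 3 had an unadjusted p under 0.05 (7.14%, against 12.6% of all genes).

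The standard errors bound what could have been missed in RNA of the whole flushed bone. A change confined to osteocytes is not bounded by them, and the fit did not separate genotype from parent cross. The standard errors ran from 0.14 to 0.41 on the log2 scale. Their median was 0.19 against 0.25 over all genes, which were not matched to the members by level. In 34 of 42 members (81.0%, against 63.2% of all genes) the 95% interval of the log2 fold change lay wholly between -1 and 1, so a 2-fold change in either direction was outside those intervals. The counts before adjustment rested on single libraries. In edgeR 0 members had an unadjusted p under 0.05 without Dmp1Cre.Efnb2f/f replicate 1 (2.87% of all genes), without replicate 2 (3.93%) or without control 1 (11.3%), while 5 did without control 2 (11.9% of the members, 10.8% of all genes) and 6 without control 3 (14.3% and 15.8%). The groups were apart in 11 members without Dmp1Cre.Efnb2f/f replicate 3 (26.2%, against 29.9% of all genes), in 7 without control 1 (16.7% and 19.6%), in 6 without control 3 (14.3% and 20.3%) and in 5 without Dmp1Cre.Efnb2f/f replicate 2 (11.9% and 15%). These larger counts were thus near or below the share of all genes in the same reduced set of libraries.

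**Figure D2:**
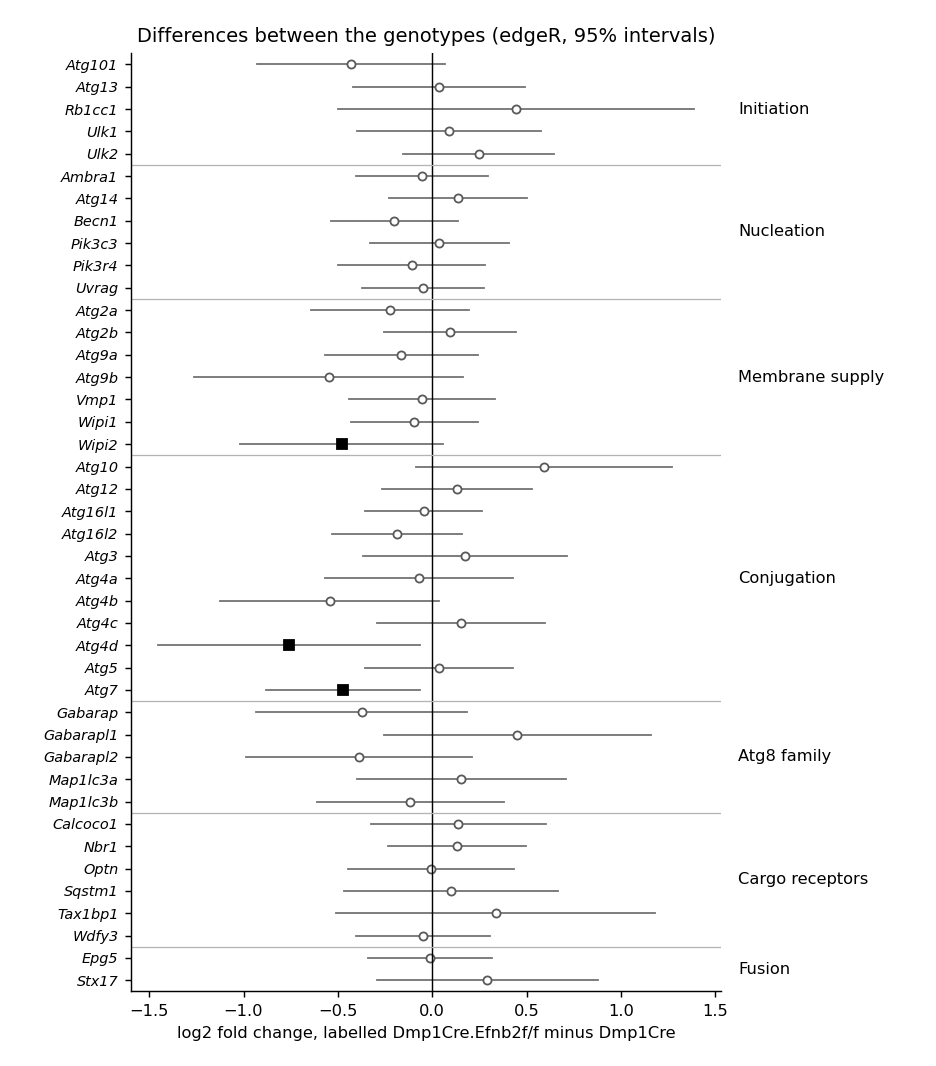
Log2 fold change (Dmp1Cre.Efnb2f/f over Dmp1Cre, n = 3 and 4) of each of the 42 members from edgeR, with its 95% interval, by step; filled squares mark members whose groups did not overlap. The points lie on both sides of 0, and the intervals of Atg7 and Atg4d are the ones that stay below 0.

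Initiation comes first in the pathway. The 5 genes of this step had a median log2 fold change of 0.09, with 0 passing before or after adjustment and 0 with groups apart. Ulk1 encodes the kinase that starts autophagosome formation under nutrient and energy sensors. Its level was 120.2, 128.9 and 74.9 CPM in Dmp1Cre.Efnb2f/f, against 104.4, 86.0, 101.1 and 115.0 CPM in controls, so the control values lay inside the range of the other genotype. The difference of 0.09 (SE 0.21, 95% interval -0.40 to 0.57) was smaller than the spread between mice (edgeR adjusted p = 0.858). Rb1cc1, named here after its values were seen, was at 169, 149.8 and 98.9 CPM against 64.7, 141.7, 156 and 47.6 CPM. Controls 1 and 4 were low and controls 2 and 3 were as high as the Dmp1Cre.Efnb2f/f libraries, and the log2 fold change of 0.44 had an SE of 0.41 and an edgeR adjusted p of 0.645. Ulk2, a paralog of Ulk1, Atg13 and Atg101, which hold the complex together, had unadjusted p from 0.0825 to 0.868 in edgeR.

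Nucleation was the most even step, with the highest library at a median of 1.32 times the lowest. Its 6 genes encode Beclin 1 (Becn1), the lipid kinase VPS34 (Pik3c3) and its VPS15 partner (Pik3r4), the alternative subunits Atg14 and Uvrag, and the regulator Ambra1. All 6 had 95% intervals inside -1 to 1, between -0.54 at the lowest bound and 0.50 at the highest. Becn1 was at 103.0, 111.9 and 102.9 CPM against 108.0, 119.2, 124.7 and 135.3 CPM. The groups overlapped only through control 1, and the log2 fold change of -0.20 (SE 0.15) did not pass (edgeR adjusted p = 0.575). The gene spans of Becn1 and Cntd1, introns included, overlap by 444 bases, and the strand setting of the counting is not stated. Exon overlap was not checked, so it is not known whether reads of that stretch could belong to either gene.

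Membrane supply and the proteins that read phosphatidylinositol 3-phosphate made up 7 genes: the scramblases Atg9a and Atg9b, the lipid transfer proteins Atg2a and Atg2b, the effectors Wipi1 and Wipi2, and Vmp1, a scramblase of the endoplasmic reticulum. The step had a median log2 fold change of -0.16, with 0 members at an unadjusted p under 0.05 and 1, Wipi2, with groups apart. Wipi2 recruits Atg16l1 and so links the lipid signal to conjugation. It was at 98.6, 117.1 and 117.1 CPM in Dmp1Cre.Efnb2f/f and at 156, 122.6, 121.3 and 219 CPM in controls. The nearest libraries of the 2 groups, at 117.1 and 121.3 CPM, differed by far less than the range of the controls, and control 4 was far above the rest. The log2 fold change was -0.48 (SE 0.24, 95% interval -1.02 to 0.05, unadjusted p = 0.0727 and adjusted p = 0.517 in edgeR), and -0.27 without control 4. Blocked on the parent cross, which compares only Dmp1Cre.Efnb2f/f replicate 3 with control 3, it was -0.05. The study's methods blocked a limma fit on the collection day, which the labels do not give. When all 12 possible assignments of mice to the second day were tried, Wipi2 was called in 2, which called 3718 and 4929 of all 15098 genes. Wipi2 lies at chr5:142629533-142669672 of GRCm38.

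Conjugation held both members with an unadjusted p under 0.05. In this step Atg7, an E1-like enzyme, activates both Atg12 and the Atg8 proteins, the E2-like enzymes Atg10 and Atg3 pass them on, the Atg12-Atg5-Atg16l1 complex completes the transfer to lipid, and the Atg4 proteases prime Atg8 and release it again. The 11 genes had a median log2 fold change of -0.04, 5 positive and 6 negative. Promoter stretches are shown for Atg3, Atg5 and Atg7 because, among the members, their windows hold the E-box hexamer CACGTG wholly before the start. The window given for Atg7 belongs to a start 27969 bases inside the gene as listed, while those of Atg3 and Atg5 lie 0 and 17 bases from the listed gene start. Each line is the stretch of the RefSeq promoter window (GRCm38.p6, plus strand, 5′ to 3′) around the E-box hexamer CACGTG, the core of the sites bound by basic helix-loop-helix factors such as Tfeb, and the capitals mark the hexamer.
Atg3 (chr16:45158715-45158783): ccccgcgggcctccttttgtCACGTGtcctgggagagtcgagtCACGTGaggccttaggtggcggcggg
Atg5 (chr10:44268305-44268338): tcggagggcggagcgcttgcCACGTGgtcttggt
Atg7 (chr6:114670944-114670989): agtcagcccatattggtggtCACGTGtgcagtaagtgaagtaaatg

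A window from 250 bases before to 50 bases after a start was given for 34 of the 42 members, and 4 of them (Atg3, Atg5, Atg7 and Atg14, 11.8%) held CACGTG. This was near the 11.2% of 11834 tested genes with a window, and 7.15% of all 32851 windows held it. The longer TCACGTGA, which contains the E-box and is the core of the CLEAR element, was found in Atg3 alone (2.94%, against 2.04% of tested genes and 0.974% of all windows). The forkhead-type GTAAACA was in 0 of 34 windows, against 3.17% of tested genes and 3.65% of all windows. All motifs were looked for on both strands, and a match describes letters in a window and no binding. Of the 4 members with the E-box, Atg7 was lower without overlap, while Atg3, Atg5 and Atg14 overlapped between the genotypes. Whether the E-box went with these differences was not tested.

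Atg7 (chr6:114643127-114860604, GRCm38) was at 48.2, 55.1 and 61.1 CPM in Dmp1Cre.Efnb2f/f and at 81.9, 65.6, 66.3 and 90.9 CPM in controls. All 3 of the former were below all 4 controls, by 54.8 ± 6.45 (SD, n = 3) against 76.2 ± 12.4 CPM (SD, n = 4). The log2 fold change was -0.47 (SE 0.18, 95% interval -0.88 to -0.07), with an unadjusted p of 0.0274 and an adjusted p of 0.511 in edgeR, and the exact permutation test on the CPM values gave p = 0.0857. Blocking on the parent cross, which compares only Dmp1Cre.Efnb2f/f replicate 3 with control 3, gave a log2 fold change of -0.12. The limma fits with the 12 day assignments called Atg7 in 4 of them (adjusted p from 0.00425 to 0.979). Those assignments called 1988 to 4929 of all 15098 genes.

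Atg4d (chr9:21265205-21274837, GRCm38) had the most negative log2 fold change of the set. Its levels were 41.97, 49.8 and 57.1 CPM against 79.9, 60.3, 60.0 and 136 CPM, so the groups did not overlap, and controls 2 and 3 lay close to Dmp1Cre.Efnb2f/f replicate 3. The log2 fold change of -0.76 (SE 0.31, 95% interval -1.45 to -0.06) had an unadjusted p of 0.0357 and an adjusted p of 0.511 in edgeR. It became -0.43 when control 4 was left out. With the parent cross as a block, which compares only Dmp1Cre.Efnb2f/f replicate 3 with control 3, it was -0.07. Limma with a day block called Atg4d in 4 of 12 assignments (adjusted p from 0.00431 to 0.997). Those assignments called 1988 to 4929 of all 15098 genes. The gene span of Atg4d, introns included, overlaps that of the neighbouring Kri1 by 1381 bases, which could limit how reads there were assigned. Exon overlap was not checked. Kri1 itself had 819, 825 and 838 counts against 680, 887, 870 and 859.

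In the other 3 proteases the groups overlapped. Atg4b, the most active of the 4 toward LC3, was at 58.9, 64.4 and 74.9 CPM against 89.9, 77.8, 72.9 and 144 CPM, and overlapped through control 3 (edgeR adjusted p = 0.513). Atg4a was at 27.1 to 33.5 CPM against 22.6 to 38.7 CPM, and Atg4c at 13.9 to 15.6 CPM against 10.1 to 16.04 CPM, both with full overlap. The gene spans of Atg4a and Psmd10, introns included, overlap by 2867 bases.

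Atg5, the partner of Atg12 in the transfer complex, was at 27.0, 30.5 and 29.4 CPM against 23.4, 31.8, 32.3 and 25.5 CPM. Its 3 Dmp1Cre.Efnb2f/f libraries lay inside the range of the controls, and the log2 fold change was 0.04 (SE 0.17, 95% interval -0.36 to 0.43, edgeR adjusted p = 0.934). Atg10 had the highest log2 fold change of the set and is named for that, after its values were seen. It was at 7.62, 6.80 and 5.22 CPM against 3.78, 5.36, 5.62 and 2.61 CPM. Only Dmp1Cre.Efnb2f/f replicate 3 lay below some controls, and the difference of 0.59 (SE 0.30) had an edgeR adjusted p of 0.517. Atg12, Atg3, Atg16l1 and Atg16l2 had overlapping groups, with unadjusted p from 0.247 to 0.754 in edgeR.

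The Atg8 family is the set of small ubiquitin-like proteins that become attached to the autophagosome membrane. Its 5 genes had 0 members past any of these criteria and a median log2 fold change of -0.12. Map1lc3b, whose product LC3B is the usual marker of autophagosomes, was at 102.3, 119.2 and 95.1 CPM against 129.7, 87.3, 93.7 and 147 CPM. Controls 1 and 4 were above and controls 2 and 3 below all Dmp1Cre.Efnb2f/f libraries, and the log2 fold change of -0.12 (SE 0.22, edgeR adjusted p = 0.813) was within the spread. Gabarapl1, named after its values were seen, was at 74.8, 65.0 and 33.0 CPM against 58.7, 35.6, 31.5 and 42.8 CPM. Replicates 1 and 2 were above every control while replicate 3 was among them, and the log2 fold change was 0.45 (SE 0.31, edgeR adjusted p = 0.561). With the parent cross as a block, which compares only replicate 3 with control 3, it was 0.07. Map1lc3a, also named after its values were seen, was even in Dmp1Cre.Efnb2f/f at 39.0, 40.6 and 38.0 CPM, and control 1 at 51.1 CPM was above them while the other controls at 24.0, 31.4 and 34.4 CPM were below (log2 fold change 0.15, SE 0.24).

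Because the 5 Atg8 genes supply substrates to the same enzymes, their make-up was compared as shares of their summed RPKM in each library. Map1lc3b gave the largest share in every library, 32.3% ± 1.42 (SD, n = 3) in Dmp1Cre.Efnb2f/f and 33.5% ± 1.18 (SD, n = 4) in controls. Gabarapl1 made up 22.0%, 17.8% and 10.7% in Dmp1Cre.Efnb2f/f and 13.9%, 13.3%, 11.1% and 9.69% in controls, so its share was higher in replicates 1 and 2 and not in replicate 3. Gabarap made up 19.5% ± 3.07 against 23.7% ± 2.13, Gabarapl2 10.1% ± 1.86 against 12.5% ± 2.19, and Map1lc3a 21.4% ± 1.09 against 18.3% ± 3.59. None of the 5 shares differed beyond the spread by the exact two-sided permutation test (p from 0.143 to 0.257, and 0.257 for each after Benjamini-Hochberg adjustment over 5 shares). The summed level was 191 ± 15.8 RPKM against 199.9 ± 51.1 RPKM (exact permutation p = 0.771), with controls 1 and 4 at 238 and 249 RPKM and controls 2 and 3 at 151 and 160.4 RPKM.

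**Figure D3:**
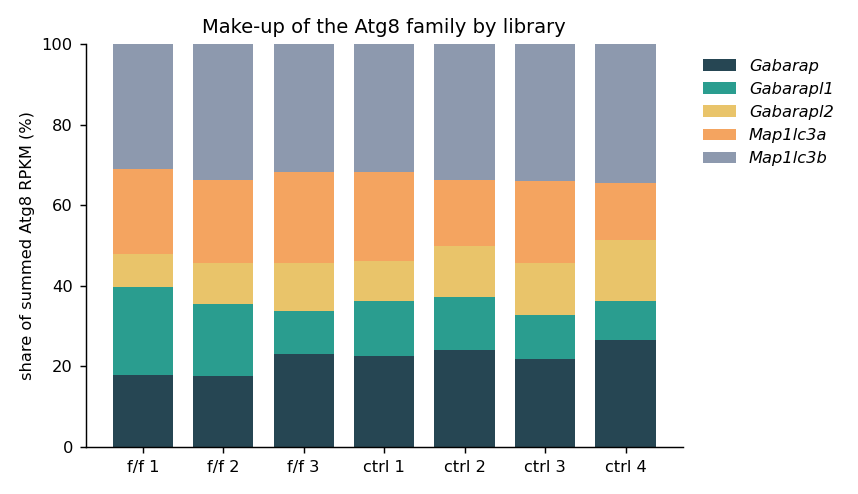
Share of each Atg8 gene in the summed Atg8 RPKM (%) of each of the 3 Dmp1Cre.Efnb2f/f (f/f) and 4 Dmp1Cre (ctrl) libraries, stacked to 100%. Map1lc3b is the largest band in all 7 bars, and the Gabarapl1 band runs from 9.69% in control 4 to 22.0% in Dmp1Cre.Efnb2f/f replicate 1.

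Cargo receptors and adaptors had a median log2 fold change of 0.12 over 6 genes, with 0 past the threshold before or after adjustment and 0 with groups apart. Sqstm1, whose product p62 binds ubiquitin and Atg8 and is itself degraded with its cargo, was at 313, 369 and 246 CPM against 356, 209, 246 and 344 CPM. The groups covered nearly the same range, and the log2 fold change was 0.10 (SE 0.25, 95% interval -0.47 to 0.67, edgeR adjusted p = 0.863). Tax1bp1, named after its values were seen, was at 262, 245 and 184 CPM against 109.7, 260.7, 258 and 102.3 CPM. As in Rb1cc1, controls 1 and 4 were low and controls 2 and 3 were level with Dmp1Cre.Efnb2f/f (log2 fold change 0.34, SE 0.37, edgeR adjusted p = 0.690). Calcoco1, a receptor for autophagy of the endoplasmic reticulum that is named after its values were seen, was at 77.9, 81.7 and 54.2 CPM against 77.8, 51.6, 62.5 and 67.0 CPM (log2 fold change 0.14, SE 0.20). Nbr1, a partner of p62 on aggregates, Optn, a receptor for damaged mitochondria, and Wdfy3 had edgeR unadjusted p from 0.432 to 0.968.

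The fusion factors Stx17, the SNARE of the closed autophagosome, and Epg5 had overlapping groups. Epg5 was at 151, 157 and 139.8 CPM against 140.6, 148, 155 and 159 CPM. Stx17 was at 64.7, 62.35 and 44.1 CPM against 35.9, 58.1, 58.7 and 33.6 CPM, again with controls 1 and 4 lowest.

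Much of the variation among members lay between controls 1 and 4 and the other libraries. One or other of these was the highest or lowest of the 7 in 36 of 42 members (85.7%), as in 85.9% of all genes. Control 4 was the highest library in 19 members (45.2%, against 32.5% of all genes) and the lowest in 7 (16.7%, against 24.1%). The pattern ran with base composition. Over all tested genes, the genes below the lower quartile of GC, 46.28%, had a median deviation from the gene's mean of -0.44 in control 1 and -0.51 in control 4 on the log2 scale, and those above the upper quartile, 55.33%, had 0.27 and 0.37. The other 5 libraries ran the opposite way (0.04 to 0.27 and -0.18 to -0.04), which deviations from a mean over the same 7 libraries bring about by construction. The members followed it: Rb1cc1 (39.69% GC) and Tax1bp1 (42.16%) were low in both controls, and Atg4d (57.10%), Atg101 (57.95%) and Atg2a (59.08%) were high. Across the 42 members, which share these libraries, the deviation went with GC content with a Spearman rho of 0.83 in control 1 and 0.65 in control 4, and the log2 fold change between the genotypes with a rho of -0.50, as it did over 14434 genes (-0.46). Controls 1 and 4 also had the highest summed osteoblast markers, 71375.4 and 35352.5 CPM against 14162 to 24427 CPM in the other libraries. Most of each sum was Col1a1 and Col1a2, at 38291 and 30802.5 CPM in control 1 and 18722.5 and 15352.8 CPM in control 4. Of that list, Ibsp did not follow in control 1 (463 CPM) or control 4 (168 CPM). Alpl did not follow in control 4 (108 CPM). Summed macrophage markers were 689 and 691 CPM against 455 to 521 CPM, though Mrc1 did not follow in control 1 (179 CPM). Osteoclast markers summed to 2613 CPM in control 1 against 753 to 1302 CPM. The part of these cells in the pattern was not tested.

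**Figure D4:**
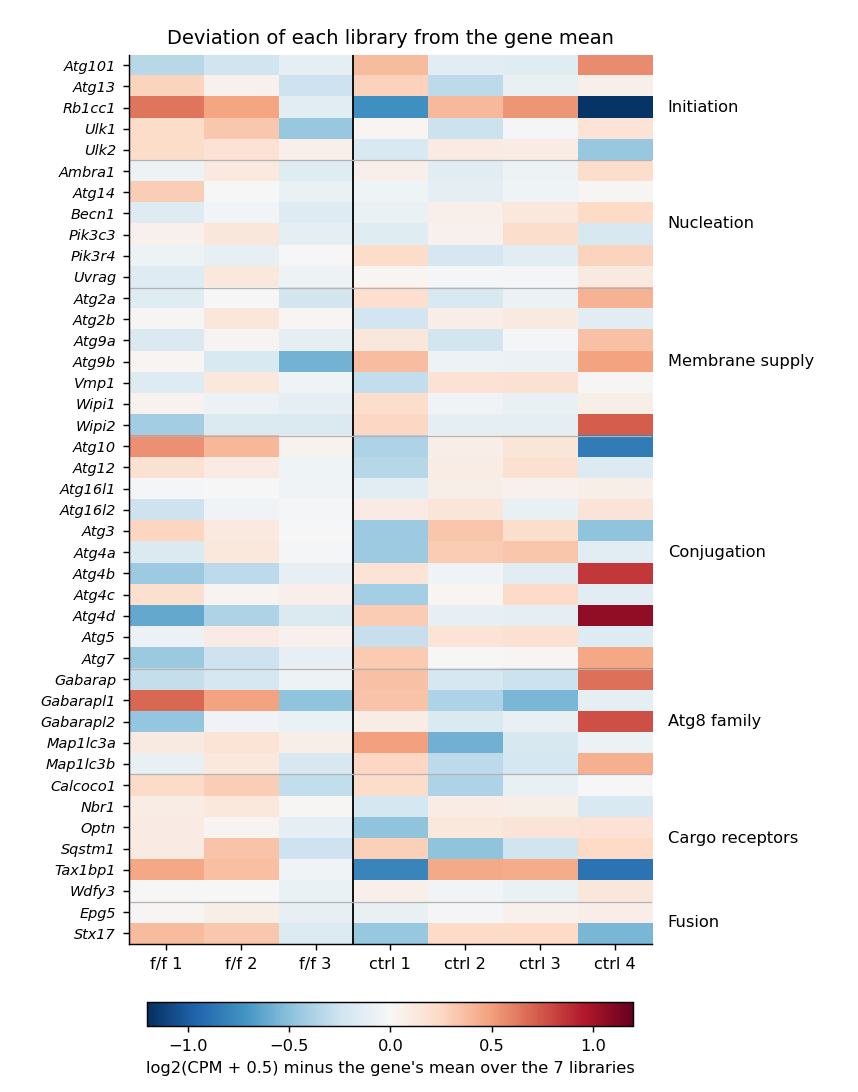
Deviation of each member in each library from that gene's mean over the 7 libraries, as log2(CPM + 0.5), by step; the colour scale runs from -1.2 to 1.2. The columns of controls 1 and 4 hold most of the strong colours, with Rb1cc1, Tax1bp1 and Stx17 low and Atg4d high in control 4.

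**Figure D5:**
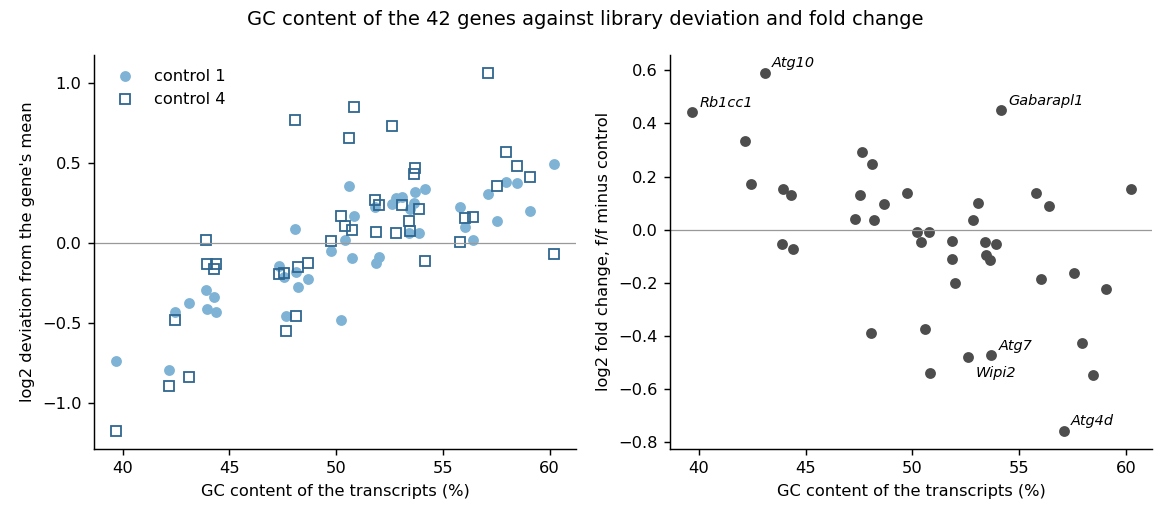
GC content of each member's transcripts (%) against its log2 deviation in controls 1 and 4 (left) and against its log2 fold change between the genotypes from edgeR (right), with the 42 members as points. The left points rise with GC (Spearman rho 0.83 and 0.65) and the right points fall with it (rho -0.50).

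Removing each library's smooth trend against GC content, an alternative chosen after seeing the data, kept the same 3 members apart and added others. Atg7 (log2 fold change -0.35, SE 0.10), Atg4d (-0.53, SE 0.19), Atg4b and Wipi2 (-0.37, SE 0.16) had an unadjusted edgeR p under 0.05, or 4 of 42 members against 13.6% of all genes. Groups were apart in 5 members, these and Atg101, all lower, against 13.9% of all genes in either direction. None passed after adjustment, with adjusted p of 0.316 for Atg7 and 0.357 for Wipi2. Without controls 1 and 4, also chosen after seeing the data, Atg7 stood at -0.26 (SE 0.12) and Atg4d at -0.27 (SE 0.14) with groups still apart, 12 members had groups apart (28.6%, against 37.6% of all genes), and 3 (Map1lc3a, Atg4a and Gabarapl1) had an unadjusted edgeR p under 0.05 (7.14%, against 17.5% of all genes). The erythroid and neutrophil markers above were lower in Dmp1Cre.Efnb2f/f in the same libraries as Atg7, Atg4d and Wipi2, and their part in these differences was not tested.

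The study's own pipeline, limma on quantile-normalized log2 CPM with array weights, gave another picture. Without a block for the day of collection, which the labels do not give, it called 4 members, all higher in Dmp1Cre.Efnb2f/f, or 4 of 42, against 14.9% of all genes called in either direction and 7.49% called higher. These were Sqstm1 (log2 fold change 0.72, SE 0.14, limma adjusted p = 0.0164), Gabarapl1 (0.83, SE 0.19, adjusted p = 0.0234), Map1lc3a (0.56, SE 0.13, adjusted p = 0.0244) and Calcoco1 (0.50, SE 0.13, adjusted p = 0.0323). In that fit controls 1 and 4 had weights of 0.193 and 0.168 and control 2 and Dmp1Cre.Efnb2f/f replicate 2 had 3.26 and 7.28, and in that latter pair Sqstm1, Map1lc3a and Calcoco1 had their highest Dmp1Cre.Efnb2f/f value and their lowest control value. The same pipeline without weights called 0 members and 0% of all genes. With each of the 12 possible pairs of mice set as the second day of collection, it called 0 members in 7 assignments and up to 14 (6 higher and 8 lower, against 32.6% of all genes) with Dmp1Cre.Efnb2f/f replicate 3 and control 4 as that pair. The members called in that assignment were Gabarapl1, Sqstm1, Calcoco1, Map1lc3a, Ulk1 and Atg13, all higher, and Atg7, Atg4d, Atg4b, Atg4a, Atg16l2, Gabarapl2, Wipi2 and Atg101, all lower. Over the 12 assignments Gabarapl1 and Sqstm1 were called in 5 each, Atg7 and Atg4d in 4 each, Atg4b, Atg16l2, Map1lc3a and Calcoco1 in 3 each, Wipi2, Ulk1 and Gabarapl2 in 2 each, and Atg4a, Atg13 and Atg101 in 1 each. The assignments that called 2, 6, 7, 10 and 14 of the 42 members also called 1423, 1988, 2949, 3718 and 4929 of all 15098 genes, in that order. Those that called 0 members called 0 to 59 genes.

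Genes that control or extend the machinery were taken from a list of 46, all of which were tested. Of these, 5 (10.9%, against the 9.66% of all genes) had an unadjusted edgeR p under 0.05, 2 higher and 3 lower, 0 passed after adjustment, and 5 (10.9%, against 11.3% of all genes in either direction and 6.3% lower) had groups apart, all lower. The limma pipeline without a day block called 3 of the 46, against 14.9% of all genes: Prkaa2 (log2 fold change 0.98, adjusted p = 0.0289), Prkab2 (0.93, adjusted p = 0.0215) and Mlst8 (-0.36, adjusted p = 0.0335). The median log2 fold change of the list was -0.00. Those at an unadjusted p under 0.05 were all among the 21 genes of upstream control, which hold the mTORC1 and AMPK kinases, the Tfeb and FoxO factors and the Bcl2 proteins.

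The AMPK subunits had log2 fold changes of both signs. Prkaa2, the catalytic subunit abundant in muscle, was at 103.3, 96.6 and 72.6 CPM against 25.5, 41.2, 90.0 and 23.0 CPM, with a log2 fold change of 1.02 (SE 0.45, edgeR adjusted p = 0.511). Prkab2, a regulatory subunit also abundant in muscle, was at 68.9, 93.7 and 61.2 CPM against 24.8, 41.6, 67.5 and 28.2 CPM, with a log2 fold change of 0.88 (SE 0.34). In both, control 3 was level with the Dmp1Cre.Efnb2f/f libraries, and control 3 was also the control highest in skeletal muscle markers, with a summed level of 24110 CPM against 10553 to 11861 CPM in the other controls. The part of muscle RNA in these values was not tested. Another regulatory subunit, Prkab1, was at 65.7, 70.7 and 74.3 CPM against 85.0, 77.1, 81.4 and 129.4 CPM, without overlap (log2 fold change -0.41, SE 0.21).

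Mlst8, a subunit of the mTOR complexes, was at 26.1, 28.0 and 31.3 CPM against 42.1, 33.4, 36.5 and 50.5 CPM, all controls being higher (log2 fold change -0.51, SE 0.19, unadjusted p = 0.0224 and adjusted p = 0.511 in edgeR). Bcl2l1, which encodes the Beclin 1 inhibitor Bcl-xL and is strongly expressed in erythroid precursors, was at 113, 136 and 139.0 CPM against 201, 151, 162 and 368 CPM, without overlap (log2 fold change -0.77, SE 0.32). Its highest value was in control 4, the library highest in erythroid markers, and their part in it was not tested. Foxo3, a transcription factor that activates autophagy genes, was at 111, 137 and 149.7 CPM against 182, 170.0, 147 and 238 CPM, and overlapped through control 3 (log2 fold change -0.48, SE 0.21). Plekhm1, an adaptor between Rab7, Atg8 proteins and the HOPS tether, and Vps16, a HOPS subunit, were lower without overlap, by log2 fold changes of -0.38 (SE 0.20) and -0.15 (SE 0.14). The 11 genes of further machinery and the 3 RhoA and ROCK genes had 0 members at an unadjusted p under 0.05 in edgeR and 0 with groups apart.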

How the data were processed

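Paired-end reads of 100 bases were demultiplexed with bcl2fastq 2.17.1.14, according to the submitters' processing notes. The authors mapped them to mm10 with Rsubread and deposited raw counts per Entrez gene from featureCounts with the built-in annotation, without normalization. The strand setting is not given in the sources used here. A filter of 0.65 CPM or more in 3 or more libraries kept 16302 genes, and 1204 were left out as immunoglobulin segments (179), genes without symbol (184), predicted genes (523), pseudogenes (313), ribosomal RNA (4) and the Y and Xist class (1), which left 15098. These follow the classes in the study's methods, with ribosomal genes read as ribosomal RNA and a missing symbol in place of an obsolete ID, so the genes left may differ from the study's. Entrez IDs were matched to RefSeq GRCm38.p6 for 25275 of 27179 genes. The 15098 genes were fitted together with edgeR 4.0.16 (TMM, robust quasi-likelihood) in R 4.3.3, and p-values were adjusted by Benjamini-Hochberg with a threshold of 0.05. Single values were compared by two-sided exact permutation in Python 3.11.15 with SciPy 1.17.1. The edgeR, DESeq2 and limma fits were also run on simulated counts. The planted changes were larger than any seen in the members, and no effects of cross, day or GC content were simulated. The simulation therefore does not show how the fits fare on these libraries. DESeq2 1.42.0 and limma 3.58.1 (prior count of 2) were alternatives, with other scalings, filters, blocks and each library left out. RPKM used the gene lengths in the files, and GC content came from GENCODE transcripts (42 of 42 members).

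The members, lists and motifs were chosen with earlier results of these data known. Log2 fold changes are given for Ulk1, Becn1, Atg5, Atg7, Map1lc3b and Sqstm1, for members at an unadjusted p under 0.05 or with groups apart, for pathway genes by the same criteria, and for 6 members named after their values were seen. Replicate numbers did not pair the samples: deviations of same-numbered libraries correlated at -0.14, 0.06 and -0.42. The main test was edgeR on counts without the study's day block, because the labels do not give the day. Totals of 17245556 to 22075778 counts set the precision, and counts from PCR-amplified libraries carry more than counting error.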

Additional observations from a re-analysis of the deposited data

Results flagged for a closer look

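Among 56 results looked at (the 42 members and other values with 4 controls), 3 had 1 control standing apart from the other 3, where chance gives about 1 in 20, or 2.8. The gap to the nearest control took up 0.923 of the controls' range for Atg16l1 and 0.927 for Optn, in both cases with control 1 lowest. It took up 0.848 of the range for Prkab1, with control 4 highest.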

How the results depend on the processing

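With edgeR, 0 members passed after adjustment under any other scaling, filter or gene class, with the replicate block, and without any 1 library. The limma pipeline called 4 without a day block and from 0 to 14 with one. The count at an unadjusted p under 0.05, 2 in edgeR, was 9 with limma (21.4%, against 32.9% of all genes), from 0 to 22 with a day block (0% against 4.93%, and 52.4% against 44.7%) and 4 with the GC trend removed (9.52%, against 13.6%). It was 0 with the replicate block (3.82% of all genes), where the numbers do not pair the mice and Map1lc3b turned to 0.043. With each library left out the count ran from 0 to 6 (0% to 14.3% of the members, against 2.87% to 15.8% of all genes). Groups were apart in 5 members with limma (11.9%, against 11.4% of all genes), 5 with the GC trend removed (11.9% and 13.9%) and 12 without controls 1 and 4 (28.6% and 37.6%). The last pair of alternatives was chosen after seeing the data. With each library left out, groups were apart in 3 to 11 members (7.14% to 26.2%, against 13.1% to 29.9% of all genes). The members' median moved to 0.056 with library size only, where the median of all genes also rose to 0.094, to -0.10 with the parent cross and to 0.074 with a day block, and ran from -0.048 to 0.014 with each library left out.

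Of 22 genes with a log2 fold change, 11 kept their sign throughout, among them Atg7, Atg4d, Wipi2 and Gabarapl1, which shrank to -0.12, -0.07, -0.05 and 0.07 with the parent cross as a block, and 32 of 462 values in all changed sign. With the parent cross as a block these were Ulk1 (-0.43), Atg5 (-0.14), Map1lc3b (0.022), Sqstm1 (-0.0021), Calcoco1 (-0.20), Rb1cc1 (-0.66), Tax1bp1 (-0.49), Atg10 (-0.11), Prkaa2 (-0.31), Prkab2 (-0.14) and Foxo3 (0.023). With limma they were Atg5 (-0.096) and Map1lc3b (0.37). At the lowest of 12 day blocks they were Ulk1 (-0.14), Atg5 (-0.21), Calcoco1 (-0.021), Rb1cc1 (-0.0043) and Map1lc3b (0.011, and 0.36 at the highest). With the GC trend removed they were Atg5 (-0.047) and Map1lc3b (0.028), and without controls 1 and 4 Atg5 (-0.14), Map1lc3b (0.22), Rb1cc1 (-0.092) and Tax1bp1 (-0.17). With each library left out, the range was -0.050 to 0.29 for Ulk1, -0.045 to 0.11 for Atg5, -0.23 to 0.026 for Map1lc3b and -0.038 to 0.24 for Sqstm1. The cause of these changes was not tested.

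With 3 and 4 mice, differences well under the intervals given could not be detected, and whole-gene counts carry no information on isoforms, protein levels or autophagic flux. The day of collection was not in the labels, and genotype could not be separated from the cross for most mice.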
